A study of Mus musculus with 21 samples.

Results

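The mitochondrial respiratory chain genes described here are the nuclear genes whose platform symbol starts with Ndufa, Ndufb, Ndufc, Ndufs, Ndufv, Uqcr or Atp5, or with Cox followed by a digit from 4 to 8, together with Sdha, Sdhb, Sdhc, Sdhd and Cyc1. In all, 85 such genes were measured by a probe set naming a single gene in both array tables, out of 12393 genes present in both. They comprise 38 genes of complex I (6 core subunits, 27 accessory subunits and 5 assembly factors), 4 of complex II, 9 of complex III, 17 of complex IV and 17 of complex V. The complex IV genes hold 10 subunits, 6 tissue-restricted isoforms (Cox4i2, Cox6a2, Cox6b2, Cox7a1, Cox8b and Cox8c) and Cox7a2l, a factor that joins complexes III and IV into supercomplexes. A further 6 genes (Cox7b2, Ndufa4l2, Ndufaf2, Ndufaf6, Ndufaf8 and Ndufb4) met the symbol rule in the NMuMG table alone and were not counted, and probe sets that name several genes were left out. The members were picked by name with a rule that uses no measured value, though earlier results of these data were known when it was chosen.

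The respiratory chain sits in the inner mitochondrial membrane. Complexes I and II pass electrons from NADH and succinate to ubiquinone, complex III passes them to cytochrome c and complex IV to oxygen, while complexes I, III and IV pump protons whose return through complex V (ATP synthase) drives ATP synthesis. All complexes except II also hold subunits encoded in mitochondrial DNA, and assembly factors help to build the complexes without remaining in them. In epithelial cells TGF-b1 is known for driving the epithelial-mesenchymal transition, and FoxQ1 is a forkhead transcription factor linked to that transition.

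The study used mouse mammary epithelial cell lines on Affymetrix arrays. NMuMG cells, a line from normal mouse mammary gland, were kept for 2 h with 200 µM 4-thiouridine (4sU), a uridine analogue that cells build into RNA made while it is present, together with 5 ng/ml TGF-b1 or with no TGF-b1. Newly made RNA, pulled out of the total through its 4sU, and total RNA were each hybridised, giving newly made RNA with TGF-b1, newly made RNA of control cells, total RNA with TGF-b1 and total RNA of control cells, with 3 arrays each. All NMuMG groups therefore carry 4sU. NM18 cells, known as a subclone of NMuMG, received 25 nM siRNA for 48 h in all groups: FoxQ1 siRNA with 5 ng/ml TGF-b1 for the last 40 h, control siRNA with the same TGF-b1, or control siRNA with no TGF-b1, again with 3 arrays each. There is no group with FoxQ1 siRNA and no TGF-b1. For replicate 1 of the cells with no TGF-b1 a free-text description mentions TGF-b1. Its title and its treatment entry name none, and these decided the group. Nothing in the labels says that replicates came from separate cultures, so p-values measure the spread between these arrays, which may be technical.

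Values are log2 levels per probe set, and the probe set with the highest mean stands for a gene. Log2 differences are given ± SE from a limma fit over all arrays of a table, levels ± SD, each with n = 3 arrays per group, and a gene is said to be called, or to have risen or fallen, where its Benjamini-Hochberg adjusted p over all genes of the table is below 0.05. Levels are compared between groups within a gene. Probe sets differ in how strongly they bind, so a place above or below the median gene level is given as a rough description and ranks no gene against another. The number of arrays limits the precision.

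Replicate arrays correlated at 0.988 to 0.998 over all genes and no pair held identical values. The epithelial label was checked on 8 measured markers: 4 to 6 of the 8 lay above the median gene level in every group, with group means of Krt8 of 12.97 to 14.10 in NMuMG cells, while Esrp1 had group means of 3.92 to 4.17 in NMuMG and 5.60 to 5.79 in NM18 cells. Of 8 fibroblast markers 1 to 2 lay above it in NMuMG cells, among them Pdgfrb with a mean of 9.13 in newly made RNA with TGF-b1 and 7.85 in newly made RNA of control cells, and 0 of 8 did in NM18 cells. Total RNA array 3 of control NMuMG cells stood apart for the respiratory chain genes: their median level there was 11.65, against 11.13 and 11.22 in the other total RNA arrays of control cells. In these bulk samples fewer cells of one type and less RNA per cell cannot be told apart.

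Newly made RNA held far lower relative levels of respiratory chain genes than total RNA. In control NMuMG cells 77 of the 85 genes were lower in newly made RNA and 2 were higher, where 26.8% of all 18193 genes were lower and 17.2% higher. The median log2 difference of the 85 genes, newly made minus total, was -1.70, against -0.08 over all genes, and only 2.73% of all genes had a lower difference than that median. In TGF-b1-treated cells 77 of 85 were again lower and 1 higher, where 26.8% of all genes were lower and 18.3% higher, with a median of -1.69. The groups did not overlap for 77 genes that were lower in TGF-b1 cells, where this held for 33.5% of all genes, and for 78 in control cells, where it held for 31.4%. By array, the median level of the 85 genes lay between 9.42 and 9.56 in newly made RNA with TGF-b1 and between 9.52 and 9.67 in newly made RNA of control cells, against 11.20 to 11.26 in total RNA with TGF-b1 and 11.13 to 11.65 in total RNA of control cells. Without total RNA array 3 of control cells, 1 gene was higher in control cells and the median was -1.5.

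**Figure D1:**
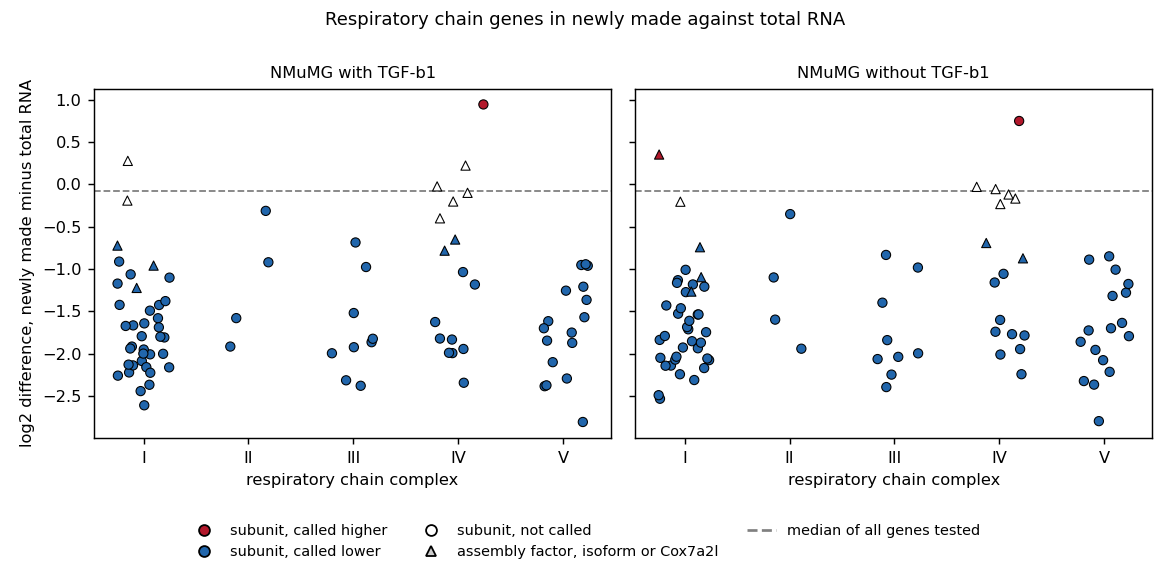
Log2 difference of each of the 85 respiratory chain genes, newly made minus total RNA (vertical axis), by complex (horizontal axis), in NMuMG cells with TGF-b1 (left) and without (right). Blue marks were called lower, red ones higher and white ones not called (circles: subunits; triangles: assembly factors, isoforms and Cox7a2l); 77 marks are blue in each panel, Cox7c is the highest point in both (0.94 left, 0.75 right), and the dashed line marks the median of all genes.

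**Figure D2:**
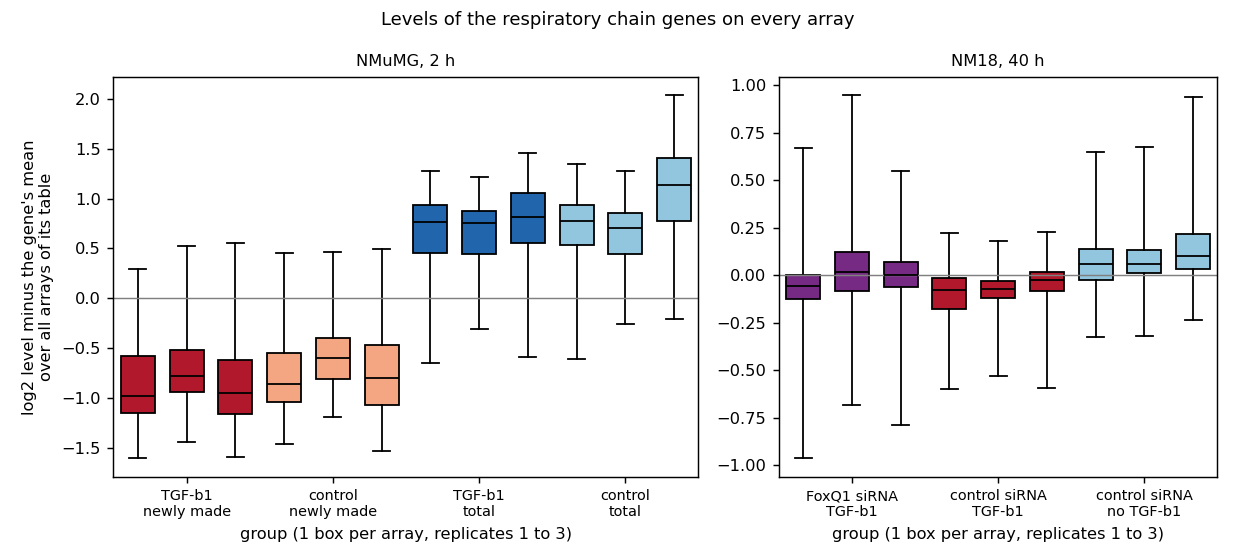
Log2 level of the respiratory chain genes on every array minus each gene's own mean over the arrays of its table (boxes: quartiles and median of the 85 genes; whiskers: lowest and highest gene). All 6 newly made arrays sit below 0 and all 6 total arrays above it in NMuMG cells (left, medians -0.98 to -0.60 and 0.71 to 1.13), while in NM18 cells (right) the array medians stay between -0.08 and 0.10.

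The gap between the kinds of RNA held for every complex, and its size differed among them. In control cells the medians were -1.73 for complex I (36 of 38 lower, 1 higher), -1.35 for complex II (4 of 4 lower), -2.00 for complex III (9 of 9 lower), -1.06 for complex IV (11 of 17 lower, 1 higher) and -1.73 for complex V (17 of 17 lower). Within complex I the 6 core subunits, which have counterparts in bacterial complex I, had a median of -1.90 and the 27 accessory subunits one of -1.79, and all 33 were lower. The assembly factors of complex I had a median of -0.74, with 3 of 5 lower (Ndufaf3, Ndufaf5 and Ndufaf7), Ndufaf4 higher and Ndufaf1 not called. Of the complex IV subunits 9 of 10 were lower (median -1.76), whereas 1 of the 6 tissue-restricted isoforms was lower (median -0.14). Leaving out assembly factors, isoforms and Cox7a2l, 72 of 73 subunits were lower and 1 was higher.

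Atp5e, the epsilon subunit of the F1 part of ATP synthase, had the lowest difference. Its log2 levels were 7.22, 7.53 and 7.27 in newly made RNA with TGF-b1, against 10.10, 10.05 and 10.29 in total RNA with TGF-b1. In control cells they were 7.47, 7.79 and 7.29 in newly made RNA, against 10.18, 10.11 and 10.65 in total RNA. Every newly made array lay far below every total array, and the difference in control cells was -2.80 ± 0.16, or 6.95-fold lower (limma adjusted p = 2.32e-09).

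Ndufb10, an accessory subunit of the membrane arm of complex I, had 7.77, 7.89 and 7.76 in newly made RNA of control cells, against 10.27, 10.11 and 10.65 in total RNA, a difference of -2.53 ± 0.15. Ndufs8, a core subunit that carries iron-sulphur centres, differed by -2.61 ± 0.15 in TGF-b1 cells and -2.49 ± 0.15 in control cells. In neither gene did the newly made and total arrays overlap. Uqcr11, a small subunit of complex III, differed by -2.38 ± 0.19 in TGF-b1 cells and -2.39 ± 0.19 in control cells, Atp5o, the stalk subunit that holds F1 to the membrane part, by -2.37 ± 0.15 in each, and Atp5k, a membrane subunit of ATP synthase, by -2.38 ± 0.16 in TGF-b1 cells and -2.21 ± 0.16 in control cells. Ndufa4, which was named as a complex I subunit and belongs to complex IV, differed by -2.24 ± 0.15 in control cells, the largest gap of complex IV. The largest limma adjusted p among all these genes in control cells was 3.14e-08, for Uqcr11.

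A fixed set of subunits gives the range of the central machinery in control cells. In complex I, Ndufv1, which takes electrons from NADH, differed by -1.94 ± 0.14, Ndufa9, an accessory subunit, by -1.54 ± 0.17, and Ndufs1, the largest core subunit, by -1.01 ± 0.20. In complex II, Sdhb, the iron-sulphur subunit, differed by -1.94 ± 0.14 and Sdha, the flavin-bearing subunit, by -0.35 ± 0.11, so that the partners that make up the catalytic head lay at either end of their complex. In complex III, Uqcrc1 (core protein) differed by -2.04 ± 0.16, Cyc1 (cytochrome c1) by -1.84 ± 0.16, Uqcrfs1 (the Rieske protein) by -1.40 ± 0.21 and Uqcrc2 (the other core protein) by -0.83 ± 0.12, the smallest gap of the complex. In complex IV, Cox4i1 differed by -1.78 ± 0.21, Cox5a by -1.60 ± 0.13 and Cox6c by -1.06 ± 0.15. In complex V, Atp5b, the catalytic beta subunit, differed by -1.70 ± 0.18, Atp5g1, which encodes the rotating c subunit, by -1.73 ± 0.18, Atp5a1, the alpha subunit, by -1.01 ± 0.15, and Atp5md, a small membrane subunit, by -0.85 ± 0.13. All of these genes were called lower, with limma adjusted p from 1.14e-08 (Sdhb) to 0.0193 (Sdha).

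Sdha was the weakest of these calls. Its levels were 11.05, 11.19 and 11.13 in newly made RNA of control cells, against 11.38, 11.38 and 11.66 in total RNA, so the arrays did not overlap. Its limma adjusted p was 0.0193 in control cells and 0.0346 in TGF-b1 cells, and 0.088 in control cells without total RNA array 3. The other probe sets of the gene disagreed in control cells, at -1.08, -0.15 and 1.46.

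Few members departed from the pattern. Cox7c, a small nuclear-encoded subunit of complex IV, had levels of 7.78, 8.01 and 8.04 in newly made RNA with TGF-b1, against 6.83, 7.26 and 6.90 in total RNA with TGF-b1. In control cells it had 7.69, 7.95 and 7.98 in newly made RNA, against 6.87, 7.23 and 7.28 in total RNA. No newly made array overlapped a total array, and the difference was 0.94 ± 0.15 in TGF-b1 cells and 0.75 ± 0.15 in control cells (limma adjusted p = 4.75e-05 and 0.000464). Its other probe set differed by 0.52 in control cells, and the call was lost when probe sets of the kinds that can match several genes were left out.

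Ndufaf4, a complex I assembly factor, had levels of 10.63, 10.63 and 10.22 in newly made RNA of control cells, against 10.28, 10.06 and 10.08 in total RNA. The arrays overlapped, and the difference of 0.35 ± 0.13 had a limma adjusted p of 0.0411, which was 0.15 without newly made array 2 of control cells. In TGF-b1 cells it was 0.28 ± 0.13 and not called (limma adjusted p = 0.106). Ndufaf1, another assembly factor, differed by -0.19 ± 0.16 in TGF-b1 cells and -0.20 ± 0.16 in control cells and was called in neither. Cox7a1, the heart and muscle isoform of subunit VIIa, was the isoform called lower (-0.65 ± 0.17 in TGF-b1 cells, -0.87 ± 0.17 in control cells). Its levels in newly made RNA, 3.88 to 4.77, lay far below the median gene level and near those of adipocyte markers there (group means 3.48 to 4.76), so the size of its difference is uncertain. The isoforms Cox4i2, Cox6a2, Cox6b2, Cox8b and Cox8c, known from lung, muscle or testis, differed by -0.40 to 0.22 in TGF-b1 cells and -0.23 to -0.03 in control cells and were not called, and the group means of Cox4i2, Cox6a2 and Cox8b in NMuMG cells lay below the median gene level of 6.67.

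Other measures were set beside this gap. Of the 85 genes, 79 lay above the median gene level. Of all genes above that level 43.0% were lower in newly made RNA of control cells, with a median of -0.18. In the top 10% of levels 43.5% of genes were lower, with a median of -0.18. The 43 respiratory chain genes there were all lower, with a median of -1.74. The genes were also short: their span in RefSeq's GRCm38.p6 annotation had a median of 7.18 kb, against 20.3 kb over all matched genes. This span runs from gene start to gene end and does not give the length of the mature RNA. Among the shortest 25% of genes 29.9% were lower, with a median of -0.14. Of the 51 respiratory chain genes there 44 were lower, with a median of -1.79. The gap between 3' and 5' control probe sets, a measure of how far RNA copies reach, moved with the kind of RNA: for Actb it was 1.77 to 2.91 in newly made RNA with TGF-b1 and 2.00 to 3.21 in newly made RNA of control cells, against 1.41 to 1.60 in total RNA with TGF-b1 and 1.34 to 1.5 in total RNA of control cells, on the log2 scale. For Gapdh it was 2.67 to 3.72 in newly made RNA of control cells, against 1.63 to 1.94 in total RNA. The summed level of epithelial markers was also lower in newly made RNA (13.70 to 14.06 with TGF-b1 and 13.78 to 13.97 in control cells, against 15.11 to 15.21 in total RNA with TGF-b1 and 15.01 to 15.43 in total RNA of control cells). Those of macrophage markers (10.34 to 10.56 against 11.28 to 11.36 in TGF-b1 cells, 10.76 to 11.14 against 11.56 to 12.01 in control cells) and of 6 muscle markers (7.75 to 7.93 against 8.04 to 8.13 in TGF-b1 cells, 7.67 to 7.92 against 8.02 to 8.13 in control cells) were lower too in newly made than in total RNA, as were those of adipocyte markers, each list with 0 to 1 gene above the median gene level, and those of fibroblast markers overlapped. The parts of level, gene span, RNA length, the 3' to 5' gap and these markers in the members' differences were not tested.

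Probe sets other than the one standing for the gene were available for 50 of the 85 genes, and 14 of these 88 differed with the opposite sign in control cells. For Atp5c1, the gamma subunit of ATP synthase, the probe set with the highest mean differed by -1.79 and a second, dimmer one by 2.44.

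The low relative level in newly made RNA was shared with other sets of housekeeping genes. In control cells 67 of 74 mitochondrial ribosomal protein genes were lower and 2 higher (median -1.23), 41 of 47 cytosolic ribosomal protein genes lower and 2 higher (-1.38), and 33 of 39 proteasome subunit genes lower (-1.36). Enzymes that feed the chain were lower too: 17 of 18 genes of the citric acid cycle and pyruvate entry (median -1.32), 16 of 19 genes of carriers, ubiquinone synthesis and electron entry (-0.95) and 8 of 8 mitochondrial antioxidant enzymes (-1.27). Idh2, the NADP-dependent isocitrate dehydrogenase of mitochondria, had 7.78, 7.70 and 8.01 in newly made RNA, against 10.26, 10.24 and 10.72 in total RNA. The groups did not overlap, and the difference was -2.58 ± 0.14 (limma adjusted p = 1.87e-09). Other genes of these lists with low p were Suclg2 (-1.79), Etfa (-1.81), Atpif1 (-2.16), Sod2 (-1.90) and Gpx4 (-1.87).

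Assembly factors outside the naming rule were split, with 24 of 37 lower and 3 higher (median -0.68). Uqcc2, an assembly factor of complex III, differed by -2.56 ± 0.19 and Pet100, one of complex IV, by -2.03. Genes of mitochondrial biogenesis and mitochondrial DNA expression went the other way on balance, with 8 of 19 higher and 3 lower (median 0.38). Mterf1a, a transcription termination factor of mitochondrial DNA, had 9.18, 9.10 and 9.20 in newly made RNA of control cells, against 7.90, 7.72 and 7.79 in total RNA. The arrays did not overlap, and it was higher by 1.36 ± 0.14 (limma adjusted p = 5.07e-07). Polrmt, the RNA polymerase of mitochondria, was lower (-1.29).

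**Figure D3:**
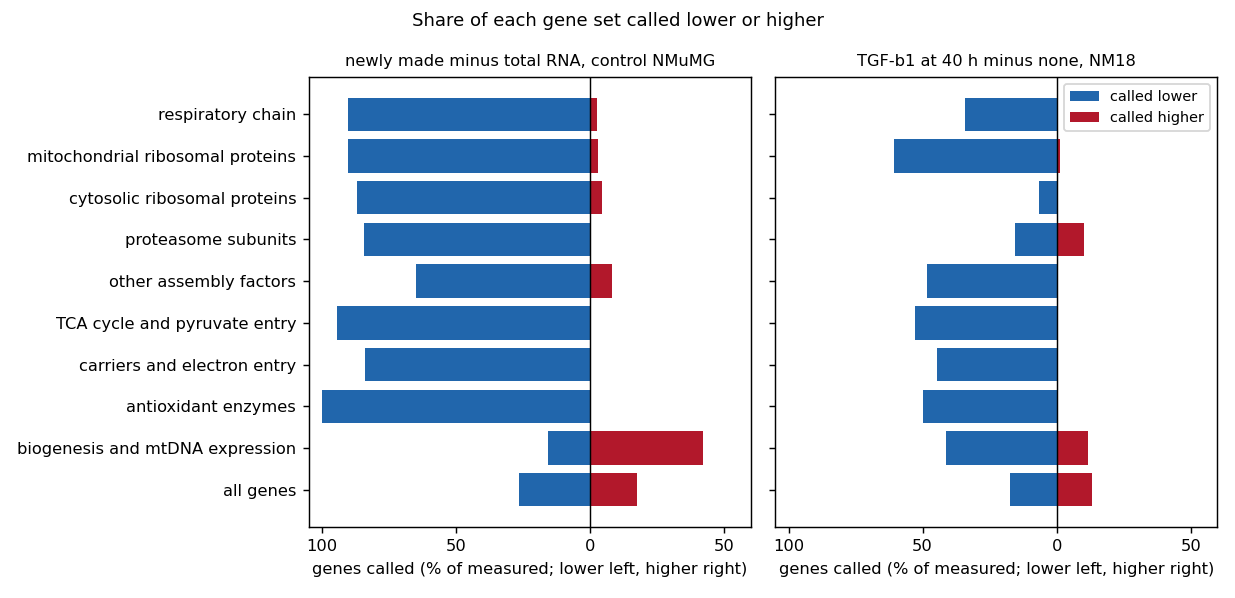
Share of genes called lower (blue, left of 0) and higher (red, right of 0), in percent of the genes measured, for the respiratory chain genes, 8 other gene sets and all genes. Left, newly made minus total RNA in control NMuMG cells, where 77 of 85 respiratory chain genes, 67 of 74 mitochondrial and 41 of 47 cytosolic ribosomal protein genes were lower; right, TGF-b1 at 40 h minus none in NM18 cells, where the counts were 29 of 85, 45 of 74 and 3 of 47.

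Promoters of Uqcr11 and Atp5e, which had some of the widest gaps, and of Cox6a1 (-1.99 ± 0.19 in TGF-b1 cells, -1.95 ± 0.19 in control cells) are given as examples. RefSeq promoters (GRCm38.p6, 250 bases before to 50 after the start) matched 70 of the 85 genes, with 75 promoters, and both strands were searched. NRF1 is a known activator of respiratory chain genes, and its core GCATGCGC was in 14.7% of these promoters, against 2.71% of all 32851 promoters. The core CCGGAAG of ETS factors such as GABP was in 24.0%, against 8.86% of all, and the YY1 core AAGATGGCG in 8.0%, against 1.40% of all. A match is a description of letters and not of a bound site. The set of all promoters was not matched to the members' promoters in base content. Any part of these cores in the gap between the kinds of RNA was not tested. The promoters printed below all hold a core. Of the 70 matched genes 11 hold the NRF1 core and 18 the ETS core, so these examples do not stand for the set. Uqcr11 (chr10:80406772-80407071, minus strand) holds an ETS core and an NRF1 core, Cox6a1 (chr5:115348909-115349208, minus strand) an NRF1 core on either strand that overlap as GCGCATGCGC and an ETS core, and Atp5e (chr2:174464052-174464351, minus strand) an ETS core; capitals mark the matches.
Uqcr11: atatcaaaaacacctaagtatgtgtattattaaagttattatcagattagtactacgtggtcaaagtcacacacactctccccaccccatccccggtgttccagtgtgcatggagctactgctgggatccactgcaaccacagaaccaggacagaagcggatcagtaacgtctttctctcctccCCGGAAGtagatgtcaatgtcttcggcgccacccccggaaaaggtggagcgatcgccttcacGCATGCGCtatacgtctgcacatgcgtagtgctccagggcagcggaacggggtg
Cox6a1: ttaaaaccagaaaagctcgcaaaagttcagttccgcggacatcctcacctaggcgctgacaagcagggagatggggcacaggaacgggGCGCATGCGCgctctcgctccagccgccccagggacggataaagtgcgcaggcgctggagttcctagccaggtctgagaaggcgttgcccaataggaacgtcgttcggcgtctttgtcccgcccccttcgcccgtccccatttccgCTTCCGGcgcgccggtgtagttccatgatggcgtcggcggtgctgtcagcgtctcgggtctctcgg
Atp5e: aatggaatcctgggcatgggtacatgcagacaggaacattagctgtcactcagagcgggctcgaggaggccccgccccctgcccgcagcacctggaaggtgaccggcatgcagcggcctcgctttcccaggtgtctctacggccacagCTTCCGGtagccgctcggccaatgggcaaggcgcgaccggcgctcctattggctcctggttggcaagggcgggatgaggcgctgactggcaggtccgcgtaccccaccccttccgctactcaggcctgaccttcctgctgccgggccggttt

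TGF-b1 for 2 h left no respiratory chain gene called. In newly made RNA 0 of 85 genes were called by limma, and 4 had an unadjusted p below 0.05, where 6.13% of all genes were called in either direction. The median difference, TGF-b1 minus control, was -0.11, against -0.012 over all genes, and 72 of the 85 differences were negative. In total RNA 0 of 85 were called by limma and 0 had an unadjusted p below 0.05, where 2.48% of all genes were called. The median was -0.10, against -0.03 over all genes, and 78 differences were negative, but without total RNA array 3 of control cells the median was 0.03. The TGF-b1 effect did not differ by kind of RNA for any member at this threshold: 0 of 85 were called, with 0 at an unadjusted p below 0.05, where 0.066% of all genes were called. Counts at an unadjusted p below 0.05 have no share of all genes beside them here. The control arrays used here also serve the comparison of the kinds of RNA.

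The members with the smallest p in newly made RNA were Cox7a1, Ndufaf4 and Ndufc2. Cox7a1 had 4.77, 4.16 and 4.49 with TGF-b1, against 4.20, 4.11 and 3.88 in control cells, a difference of 0.41 ± 0.17 (limma adjusted p = 0.223), with overlapping arrays. Ndufaf4 had 10.25, 10.26 and 10.02 with TGF-b1, against 10.63, 10.63 and 10.22 in control cells, a difference of -0.32 ± 0.13 (limma adjusted p = 0.235). Same-numbered TGF-b1 and control arrays deviated together within each kind of RNA, and with the replicate number as a block, an alternative added after the data were seen, Cox7a1, at the low levels described above, was called higher (limma adjusted p = 0.0358) and Ndufaf4 lower (0.0489). Ndufc2, an accessory subunit of complex I, had 11.07, 11.21 and 11.15 with TGF-b1, against 11.39, 11.59 and 11.26 in control cells. These arrays did not overlap, and the difference was -0.27 ± 0.12 (limma adjusted p = 0.249). In total RNA the smallest p belonged to Ndufaf4 (-0.24 ± 0.13), Ndufb10 (-0.25 ± 0.15) and Ndufa6, another accessory subunit (-0.23 ± 0.13), with limma adjusted p of 0.648 to 0.705. For the difference of the effect between the kinds of RNA it belonged to Ndufc2 (-0.26 ± 0.17), Cox4i2 (0.25 ± 0.18) and Ndufb5 (-0.23 ± 0.18), each with a limma adjusted p of 1.

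Among genes outside the chain, Ppargc1a, the coactivator PGC-1alpha that drives mitochondrial biogenesis, fell at this time. It had 5.22, 5.47 and 5.28 in newly made RNA with TGF-b1, against 6.73, 6.72 and 6.29 in control cells, a difference of -1.25 ± 0.14 (limma adjusted p = 4.01e-05). In total RNA it had 4.77, 4.99 and 4.93 with TGF-b1, against 6.29, 5.87 and 6.07 in control cells, a difference of -1.18 ± 0.14 (limma adjusted p = 0.000115). The groups stood apart in both kinds. Levels of Ppargc1a with TGF-b1 lay below the median gene level of 6.67, so the size of the fall is uncertain. In all, 3 of 19 genes of mitochondrial biogenesis and mitochondrial DNA expression fell in newly made RNA. Total RNA had 2 that fell, Ppargc1a and Ppargc1b (-0.75 ± 0.16, limma adjusted p = 0.0136). None of the 74 mitochondrial ribosomal protein genes was called in newly made RNA by limma, with 11 at an unadjusted p below 0.05 and a median of -0.22. The share of all genes at that unadjusted p is not given.

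After 40 h of TGF-b1 in NM18 cells a modest fall was measured. Of the 85 genes 29 fell and 0 rose in control siRNA cells with TGF-b1 against those without, where 17.5% of all 12393 genes fell and 13.2% rose. An unadjusted p below 0.05 was found for 40 of the 85, a count with no share of all genes beside it. The median difference was -0.13, against 0.0049 over all genes, and 70 of 85 differences were negative. The share that fell was larger among genes with high levels, where most members lie. Of all genes above the median gene level 27.7% fell when these were fitted by themselves, and 78 of the 85 genes lay there. In the top 10% of levels 24.3% of genes fell, and 22 of the 66 respiratory chain genes there did. By complex, 15 of 38 genes of complex I fell, 4 of 4 of complex II and 6 of 17 of complex V. Complex III, with 2 of 9, and complex IV, with 2 of 17, did not stand clear of the share of all genes that fell. The groups did not overlap for 49 genes that were lower and 2 that were higher, where this held for 22.6% and 19.3% of all genes. By array, the median level of the 85 genes was 11.61, 11.69 and 11.72 with TGF-b1, against 11.82, 11.77 and 11.95 without. The count of falls was 17 without array 3 of the cells with no TGF-b1 (with 1 rise) and 18 without array 1 of control siRNA with TGF-b1. Same-numbered arrays deviated together in NM18 cells, and with the replicate number as a block 38 genes fell and 2 rose (Cox7a2l by 0.20 and Uqcrc1 by 0.24). The shares of all genes given above are from fits without a block. The counts with the block or without an array have no such share beside them.

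**Figure D4:**
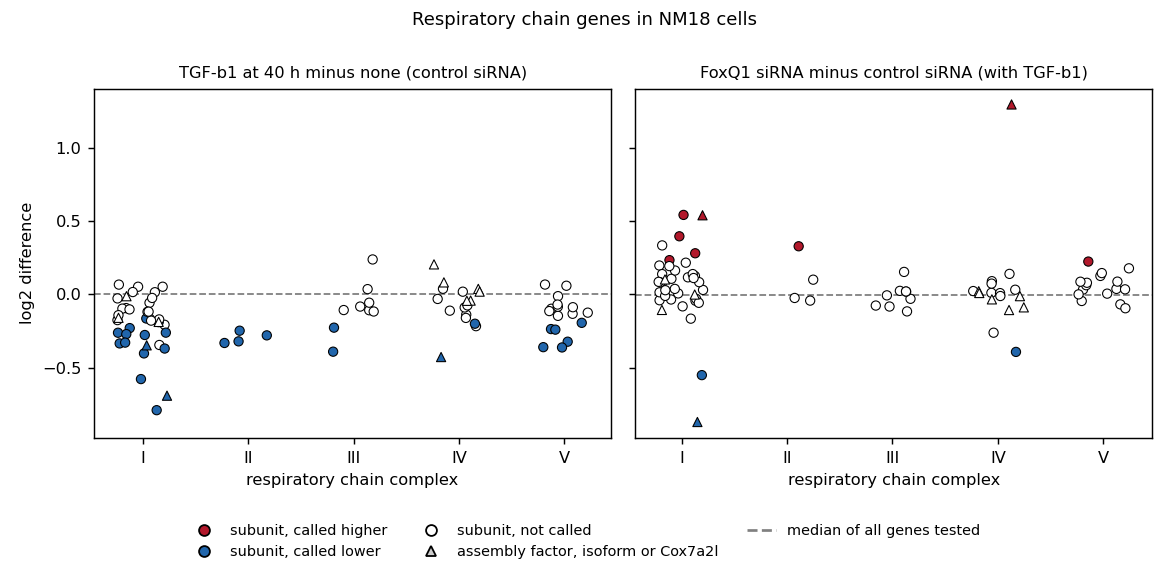
Log2 difference of each of the 85 respiratory chain genes in NM18 cells (vertical axis), by complex (horizontal axis). Left, TGF-b1 at 40 h minus none under control siRNA, with 29 genes called lower (blue); right, FoxQ1 siRNA minus control siRNA, both with TGF-b1, with 8 called higher (red) and 3 lower, where Cox7a1 at 1.30 and Ndufaf7 at -0.87 lie farthest from 0; white marks were not called, triangles are assembly factors, isoforms and Cox7a2l, and the dashed line is the median of all genes.

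Ndufa5, an accessory subunit of the arm of complex I that reaches into the matrix, fell the most. It had 9.55, 9.63 and 9.64 with TGF-b1, against 10.50, 10.26 and 10.42 without. The groups stood well apart, and the difference was -0.79 ± 0.08, or 1.73-fold lower (limma adjusted p = 3.46e-05), with -0.71 for its other probe set. Ndufaf7, a methyltransferase that acts in complex I assembly, had 8.84, 9.01 and 9.09 with TGF-b1, against 9.57, 9.60 and 9.86 without, and fell by 0.69 ± 0.10 (limma adjusted p = 0.000367). Ndufa1, a small membrane subunit of complex I, had 11.19, 11.39 and 11.30 with TGF-b1, against 11.86, 11.80 and 11.95 without. It fell by 0.58 ± 0.08 (limma adjusted p = 0.000228), and neither gene had overlapping groups. Over all members, 45 had other probe sets, and 6 of these 72 probe sets differed with the opposite sign at 40 h.

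Cox7a1 had 6.83, 6.89 and 6.83 with TGF-b1, against 7.10, 7.26 and 7.48 without. The groups did not overlap, and it fell by 0.43 ± 0.11 (limma adjusted p = 0.0121, and 0.0517 without array 3 of the cells with no TGF-b1). Levels of Cox7a1 in both groups lay below the median gene level of 7.79, so the size of the fall is uncertain. Ndufb10 had 10.51, 10.57 and 10.56 with TGF-b1, against 10.85 to 11.01 without, and fell by 0.40 ± 0.07 (limma adjusted p = 0.000809). The other falls in complex I were those of Ndufb11, Ndufaf3, Ndufa2, Ndufs1, Ndufs8, Ndufb8, Ndufb3, Ndufs7, Ndufb6, Ndufab1 and Ndufb9, from -0.37 (Ndufb11) to -0.17 (Ndufb9). In complex V they were Atp5e, Atp5g2, Atp5a1, Atp5pb, Atp5o and Atp5j2, from -0.36 to -0.19. The remaining falls were Cyc1 (-0.39) and Uqcrfs1 (-0.23) in complex III and Cox8a (-0.20) in complex IV.

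All subunits of succinate dehydrogenase fell by similar amounts. Sdhb had 10.70, 10.89 and 10.89 with TGF-b1, against 11.12, 11.18 and 11.18 without, and fell by 0.33 ± 0.10. Sdha had 11.32, 11.43 and 11.44 with TGF-b1, against 11.59, 11.66 and 11.77 without, and fell by 0.28 ± 0.07. Neither gene's groups overlapped. Sdhd and Sdhc, the membrane anchors, fell by 0.32 and 0.25, and limma adjusted p ran from 0.00211 (Sdhd) to 0.0498 (Sdhc). Sdhb and Sdhc were no longer called without some single arrays, at adjusted p up to 0.0900 and 0.192.

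Of the fixed set, Atp5a1 (-0.32 ± 0.07) and Ndufs1 (-0.33 ± 0.07) fell with limma adjusted p of 0.00595 and 0.00281. Ndufv1 (-0.17 ± 0.06), Ndufa9 (-0.21 ± 0.08), Atp5b (-0.13 ± 0.07), Atp5g1 (-0.13 ± 0.06), Cox6c (-0.08 ± 0.06), Cox5a (0.02 ± 0.09), Cox4i1 (0.04 ± 0.07) and Uqcrc1 (0.24 ± 0.12) were not called (limma adjusted p = 0.0683 to 0.915). With the replicate block Ndufv1 and Ndufa9 were called lower (limma adjusted p = 0.0194 and 0.0191) and Uqcrc1 higher (0.00748). The isoforms Cox4i2, Cox6a2 and Cox8b, at -0.04, 0.04 and -0.04, were not called.

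Mitochondrial gene sets outside the chain also fell in part. Of the mitochondrial ribosomal protein genes 45 of 74 fell and 1 rose (median -0.27), whereas 3 of 47 cytosolic ribosomal protein genes fell (median -0.04) and 6 of 39 proteasome genes fell and 4 rose (median -0.07). Of assembly factors outside the naming rule 14 of 29 fell (-0.22), among them Sdhaf1 for complex II (-0.58) and Coa3 for complex IV (-0.66). Of the citric acid cycle and pyruvate entry 9 of 17 fell (-0.23), among them Fh1, fumarase (-0.49), and Mpc1, a pyruvate carrier (-0.42). Of carriers and electron entry 8 of 18 fell (-0.20), among them Dhodh (-0.72) and Gpd2 (-0.58), enzymes that hand electrons to ubiquinone.

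Of the antioxidant enzymes 4 of 8 fell (median -0.23), among them Gpx4 (-0.29). Gsr, glutathione reductase, had 10.55, 10.70 and 10.63 with TGF-b1, against 11.90, 11.72 and 11.95 without, and fell by 1.23 ± 0.08 (limma adjusted p = 3.38e-06). Of the genes of biogenesis and mitochondrial DNA expression 7 of 17 fell and 2 rose (median -0.18). Tfam, which packages mitochondrial DNA and is needed for its transcription, had 9.29, 9.23 and 9.37 with TGF-b1, against 10.05, 9.87 and 10.15 without, and fell by 0.73 ± 0.08 (limma adjusted p = 6.83e-05). Ppargc1a had 6.09, 6.60 and 6.10 with TGF-b1, against 7.46, 7.94 and 7.57 without, and fell by 1.39 ± 0.17 (limma adjusted p = 0.000105). Its levels with TGF-b1 lay below the median gene level of 7.79, so the size of the fall is uncertain. None of these 3 genes had overlapping groups. Ppargc1b, of the same list as Ppargc1a, went the other way and rose by 0.41 ± 0.10 (limma adjusted p = 0.00766).

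Marker lists moved at the same time. The summed level of epithelial markers was 15.39 to 15.60 with TGF-b1, against 15.78 to 15.90 without, on the log2 scale. That of 7 measured macrophage markers, carried by Cd14, was 10.25 to 10.33 with TGF-b1, against 10.89 to 11.09 without, with 1 of 7 above the median gene in either group. That of the fibroblast markers was higher, at 9.07 to 9.16 with TGF-b1, against 8.86 to 8.96 without, with 0 of 8 above the median gene in either group. That of 6 muscle markers, carried by Acta1, was higher too, at 9.67 to 9.94 with TGF-b1, against 8.76 to 8.94 without. Acta1 had group means of 9.16 with TGF-b1 and 7.06 without, while the median level of the 6 was not higher with TGF-b1. Of the 6, 1 lay above the median gene with TGF-b1 and 0 without. The summed adipocyte markers overlapped between the groups. The Actb gap between 3' and 5' probe sets was 0.10 to 0.14 with TGF-b1, against 0.17 to 0.21 without, and the Gapdh gap overlapped. Their part in the members' differences was not tested.

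FoxQ1 siRNA lowered its target. Foxq1 had 7.57, 8.09 and 7.97 with FoxQ1 siRNA and TGF-b1, against 9.08, 9.04 and 9.33 with control siRNA and TGF-b1, and 7.91, 8.49 and 8.38 with control siRNA and no TGF-b1. The fall under TGF-b1 was 1.27 ± 0.16 (limma adjusted p = 0.000291), and the FoxQ1 siRNA arrays overlapped those of cells with no TGF-b1.

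Single respiratory chain genes moved in both directions with FoxQ1 siRNA, and the set as a whole stayed near 0. Of the 85 genes 8 rose and 3 fell against control siRNA, both with TGF-b1, where 11.3% of all genes rose and 8.28% fell. Both counts lay below these shares, so the members were not called more often than genes at large. The median difference was 0.03, against -0.0048 over all genes, and 22 genes had an unadjusted p below 0.05. This last count has no share of all genes beside it. The groups did not overlap for 25 genes that were higher and 5 that were lower, where this held for 19.2% and 15.5% of all genes. By complex, 5 genes rose and 2 fell in complex I, 1 rose in complex II, 1 rose and 1 fell in complex IV, 1 rose in complex V, and none was called in complex III. With the replicate block 14 rose and 5 fell, adding Atp5e, Ndufa13, Ndufa3, Ndufa6, Ndufb7 and Ndufv2 among rises and Cox5a and Ndufs3 among falls. The number of rises was 5 without FoxQ1 siRNA array 2 or 3, 4 without array 1 of control siRNA with TGF-b1 and 5 without its array 2 or 3. No share of all genes is given for the counts with the block or without an array.

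Cox7a1 showed the largest change of the 85 genes. It had 8.09, 8.37 and 7.97 with FoxQ1 siRNA and TGF-b1, against 6.83, 6.89 and 6.83 with control siRNA and TGF-b1. The groups did not overlap, and the rise was 1.30 ± 0.11, or 2.45-fold (limma adjusted p = 1.58e-05). Levels of Cox7a1 with control siRNA lay below the median gene level of 7.79, so the size of the rise is uncertain. Its levels with FoxQ1 siRNA also lay above those of cells with no TGF-b1 (7.10, 7.26 and 7.48). Because Cox7a1 is an isoform of heart and skeletal muscle, 6 muscle markers are given beside it. Acta1, skeletal actin, had 12.14, 11.73 and 11.94 with FoxQ1 siRNA and TGF-b1, against 8.91, 9.35 and 9.21 with control siRNA and TGF-b1, and 7.19, 7.13 and 6.86 with no TGF-b1. Of the 6, Acta1 alone lay above the median gene level of 7.79 in either TGF-b1 group, 0 of 6 lay above it without TGF-b1, and Myh4, a muscle myosin, had group means of 5.37 to 5.40. The summed level of the 6 was 11.86 to 12.24 with FoxQ1 siRNA, against 9.67 to 9.94 with control siRNA, both with TGF-b1, and its part in the Cox7a1 difference was not tested. The summed epithelial markers (15.64 to 15.70 with FoxQ1 siRNA, against 15.39 to 15.60 with control siRNA), the summed macrophage markers (10.63 to 10.76 against 10.25 to 10.33) and the Actb 3' to 5' gap (0.15 to 0.39 against 0.10 to 0.14) were also higher with FoxQ1 siRNA without overlap, and their part in the members' differences was not tested. The macrophage sum was carried by Cd14 (group means 10.04 against 9.45), while the median of that list was lower with FoxQ1 siRNA (6.23 against 6.39).

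Of the other rises, Ndufv3, an accessory subunit at the NADH-binding tip of complex I, had 12.32, 12.51 and 12.29 with FoxQ1 siRNA, against 11.82, 11.88 and 11.81 with control siRNA. It rose by 0.54 ± 0.08 (limma adjusted p = 0.000765), with no overlap. Ndufaf3, a complex I assembly factor, had 9.24, 9.36 and 9.23 with FoxQ1 siRNA, against 8.57, 8.83 and 8.80 with control siRNA, and rose by 0.54 ± 0.08 (limma adjusted p = 0.000587). Ndufa1 had 11.62, 11.82 and 11.62 with FoxQ1 siRNA, against 11.19, 11.39 and 11.30 with control siRNA, and rose by 0.40 ± 0.08 (limma adjusted p = 0.00464). Sdhb (0.33 ± 0.10), Ndufs8 (0.28 ± 0.07), Ndufb1 (0.23 ± 0.07) and Atp5l (0.22 ± 0.07) made up the rest, with limma adjusted p from 0.0124 (Ndufs8) to 0.0427 (Ndufb1). Each of these 4 was no longer called without some single arrays, at adjusted p up to 0.168 (Atp5l).

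The falls were those of Ndufaf7, Ndufb6 and Cox6a1. Ndufaf7 had 7.96, 8.24 and 8.14 with FoxQ1 siRNA, against 8.84, 9.01 and 9.09 with control siRNA, and fell by 0.87 ± 0.10, or 1.83-fold (limma adjusted p = 0.000149). Ndufb6, a membrane-arm accessory subunit of complex I, had 10.51, 10.50 and 10.63 with FoxQ1 siRNA, against 11.02, 11.17 and 11.10 with control siRNA. It fell by 0.55 ± 0.08 (limma adjusted p = 0.000651), and its other probe set differed by -0.48. Cox6a1, the widely expressed isoform of subunit VIa, had 13.39, 13.38 and 13.55 with FoxQ1 siRNA, against 13.91, 13.70 and 13.90 with control siRNA, and fell by 0.39 ± 0.08 (limma adjusted p = 0.00432), with -0.61 for its other probe set. In none of these did the groups overlap. Over all members, 45 had other probe sets, and 14 of these 72 probe sets differed with the opposite sign with FoxQ1 siRNA.

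**Figure D5:**
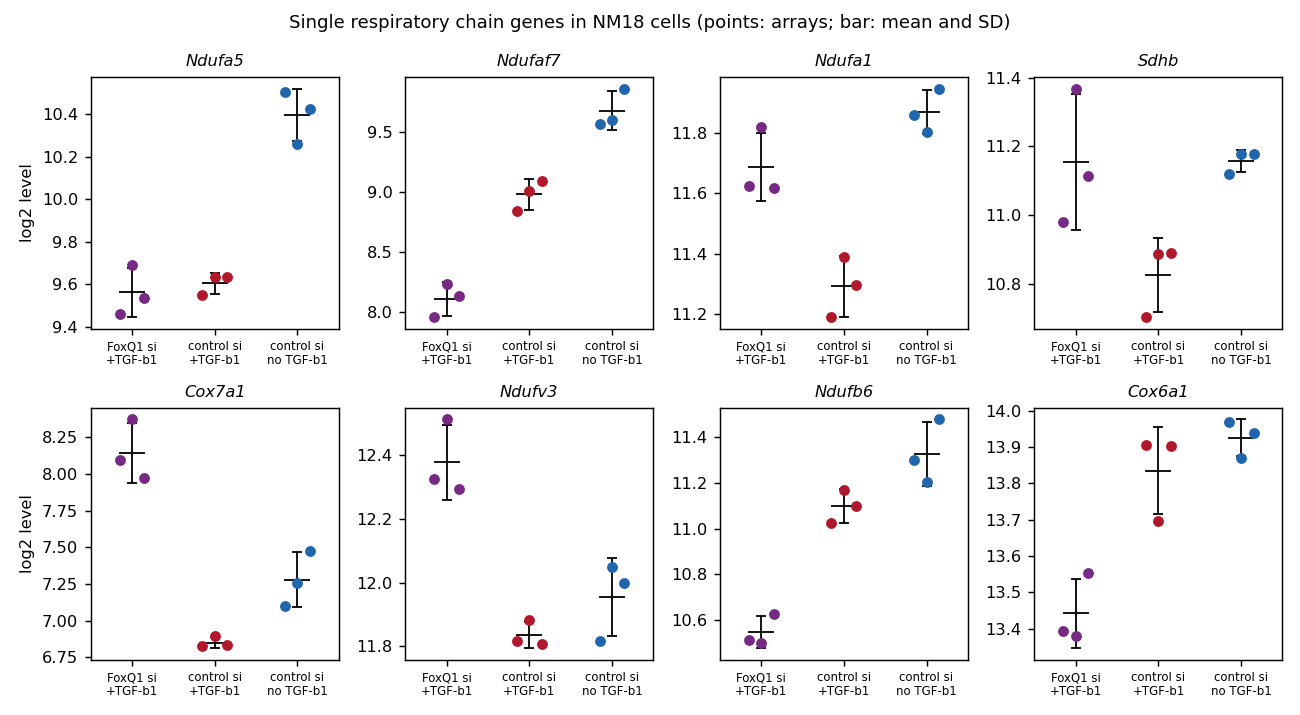
Log2 level (vertical axis) of 8 respiratory chain genes in NM18 cells with FoxQ1 siRNA and TGF-b1 (purple), control siRNA and TGF-b1 (red) and control siRNA without TGF-b1 (blue); points are arrays and the black bar gives the mean and SD. Cox7a1 is highest with FoxQ1 siRNA (7.97 to 8.37), Ndufaf7 is lowest there (7.96 to 8.24), and Ndufa5 lies between 9.46 and 9.69 in both TGF-b1 groups, below 10.26 to 10.50 without TGF-b1.

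Ndufa5 was not called with FoxQ1 siRNA. It had 9.46, 9.69 and 9.54 with FoxQ1 siRNA and TGF-b1, a difference of -0.04 ± 0.08 from control siRNA with TGF-b1 (limma adjusted p = 0.796). Its groups overlapped. Tfam had 8.70, 8.67 and 8.84 with FoxQ1 siRNA, against 9.29, 9.23 and 9.37 with control siRNA, and fell by 0.56 ± 0.08 (limma adjusted p = 0.000789). Ppargc1a differed by 0.37 ± 0.17 (limma adjusted p = 0.169, and 0.000538 with the replicate block). Among the comparison sets, 5 of 47 cytosolic ribosomal protein genes fell (median -0.13), 9 of 74 mitochondrial ribosomal protein genes rose and 4 fell (median 0.0098), and 7 of 18 genes of carriers and electron entry fell and 1 rose (median -0.13).

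Set against cells with control siRNA and no TGF-b1, cells with FoxQ1 siRNA and TGF-b1 had 22 of the 85 genes lower and 6 higher, where 18.6% of all genes were lower and 19.3% higher. This comparison shares its arrays with the other NM18 comparisons, and siRNA and TGF-b1 cannot be told apart in it. The median was -0.08, against -0.0023 over all genes. Ndufaf7, at 7.96, 8.24 and 8.14 against 9.57, 9.60 and 9.86, differed by -1.56 ± 0.10, or 2.95-fold (limma adjusted p = 5.14e-07). Ndufa5 (-0.83 ± 0.08), Ndufb6 (-0.78 ± 0.08), Cox6a1 (-0.48 ± 0.08) and Cyc1 (-0.42 ± 0.07) followed among the lower genes. Cox7a1 (0.87 ± 0.11), Ndufv3 (0.42 ± 0.08), Ndufb1 (0.28 ± 0.07), Ndufa3 (0.25 ± 0.07), Atp5h (0.19 ± 0.06) and Uqcrh (0.19 ± 0.06) were the higher ones, and limma adjusted p over all these named genes was at most 0.0260. With the replicate block 32 were lower and 10 higher. The count of lower genes was 14 without FoxQ1 siRNA array 1 or without array 3 of the cells with no TGF-b1, and that of higher genes was 3 without FoxQ1 siRNA array 2 or without array 1 of the cells with no TGF-b1. Here too the shares of all genes belong to the fit of all arrays without the block.

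The promoters of Cox7a1 and Ndufaf7, the members that changed the most with FoxQ1 siRNA, were searched for the forkhead core TGTTTA on both strands, and for the cores named above, with no match in either of these windows. The forkhead core was in 8.0% of the 75 promoters of members, those of 5 genes (Cox7a2, Ndufa7, Ndufab1, Ndufaf1 and Ndufb5), against 13.4% of all promoters. The windows are chr7:30183921-30184220 (plus strand) for Cox7a1 and chr17:78936885-78937184 (plus strand) for Ndufaf7, in GRCm38.p6 from RefSeq, and lower case throughout shows that no core was found.
Cox7a1: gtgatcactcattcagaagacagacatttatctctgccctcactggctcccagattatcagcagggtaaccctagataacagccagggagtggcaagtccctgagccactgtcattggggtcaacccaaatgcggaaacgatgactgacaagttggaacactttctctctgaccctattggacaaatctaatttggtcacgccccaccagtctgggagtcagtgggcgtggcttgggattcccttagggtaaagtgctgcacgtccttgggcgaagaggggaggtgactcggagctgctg
Ndufaf7: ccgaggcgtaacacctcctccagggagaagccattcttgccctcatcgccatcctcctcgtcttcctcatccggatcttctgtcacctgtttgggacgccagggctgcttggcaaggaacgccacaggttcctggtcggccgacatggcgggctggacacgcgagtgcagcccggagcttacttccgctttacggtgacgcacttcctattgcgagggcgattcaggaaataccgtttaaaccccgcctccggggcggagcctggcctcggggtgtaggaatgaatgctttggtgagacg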

How the data were processed

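The deposited files hold 1 log2 expression value per probe set and array, made by the authors. No label states the scale. It was taken as log2 because of the values' range, and folds rest on that. Per the submitters' processing notes affy 1.18.2 was used, with no step given; background correction, summarisation and normalization were not given in the sources used here. Per the labels' protocols, newly made and total NMuMG RNA were amplified before hybridisation, and NM18 RNA was labelled from the 3' end.

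Probe sets with 1 gene symbol in the platform annotation were kept, and the one with the highest mean stood for a gene, giving 18193 genes in the NMuMG table and 12393 in the NM18 table. Each table (12 NMuMG arrays, 9 NM18 arrays) was fitted with 1 mean per group and no covariates with limma 3.58.1 (lmFit, eBayes) in R 4.3.3 on the deposited values, with Benjamini-Hochberg adjustment over all its genes; the pipeline was tested on simulated data. In all, 8 comparisons were made, with no other filter. Named were a fixed set of subunits, the 5 called members without overlap that moved most in each direction of a comparison (the 3 with the smallest p where none was called), the members with the largest and smallest gap of each complex in newly made against total RNA, and the 2 genes with the smallest p of each other list; further called members were named after their values were seen. The members and lists were chosen with earlier results of these data known. A gene of the fixed set is not reported here.

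Same-numbered NM18 arrays deviated together: their deviations from their group means correlated at 0.160 to 0.608 in every pair. So did same-numbered TGF-b1 and control arrays within newly made RNA (0.339 to 0.732) and within total RNA (0.122 to 0.407). Between newly made and total RNA of the same treatment the correlations ran from 0.0119 to 0.306. That range overlaps the one within total RNA, so whether these arrays are paired was not settled. Any pairing is read from these correlations and not from the labels, and arrays of different numbers were not set beside them. Same-numbered arrays that differed in both treatment and kind of RNA correlated at -0.0556 to 0.315 and at -0.182 to 0.153. Alternatives were a replicate block, quantile normalization, median centring, other rules for probe sets, genes above the median level, only the groups compared, and each array left out.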

Additional observations from a re-analysis of the deposited data

How the results depend on the processing

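Of the main counts and medians recomputed under the alternatives 397 stayed close and 41 moved, where a count moved if it changed by more than 1.5 times and a median if it changed by more than 1 SD between replicate arrays. Of the values of named genes that were called, 2052 kept their call, 96 lost it and 1 turned its sign, and of 4216 values of named genes that were not called 48 gained a call, 19 of them with a replicate block. That was Sdha in TGF-b1 cells, newly made against total RNA, at 0.15 when all its probe sets were averaged (limma adjusted p = 0.233). In control cells, newly made against total RNA, 1 gene was higher with all probe sets averaged or with only the groups compared, 4 without _s_at and _x_at probe sets, and 1 to 2 with each array left out; the median was -1.43 with all probe sets averaged and -1.46 after quantile normalization. In TGF-b1 cells 3 genes were higher after median centring and 2 without _s_at and _x_at probe sets; the median was -1.79 for genes above the median level, -1.43 with all probe sets averaged, -1.57 after median centring, -1.60 after quantile normalization and -1.78 to -1.62 with each array left out. The median of all genes in control cells, -0.08 as deposited, was 0.03 after median centring and -0.18 after quantile normalization.

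At 2 h the replicate block within each kind of RNA called 1 gene lower and 1 higher in newly made RNA. At 40 h 17 to 30 genes fell with each array left out and 0 to 1 rose; 1 rose with all probe sets averaged, median centring or quantile normalization, and 2 with the replicate block. With FoxQ1 siRNA 5 fell after quantile normalization or with the replicate block, 14 rose with the block, and 4 to 8 rose with each array left out. Against cells with no TGF-b1, 14 to 20 genes were lower and 3 to 7 higher with each array left out, and 10 were higher after quantile normalization or with the replicate block. The replicate block moved no other count of members by more than 1.5 times. For newly made against total RNA, where pairing was not settled, it gave no other direction. The causes of these shifts were not tested. Shares of all genes under these alternatives are not given here, so the counts of members have none beside them. With 3 arrays per group, genes near the array background, such as Cox4i2, Cox8b and, in NMuMG cells, Cox7a1, have little room to show a fall.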
